A study of Mus musculus with 4 samples.

Results

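The circadian clock genes followed here are the 10 genes Arntl, Npas2, Per1, Per2, Per3, Cry1, Nr1d1, Nr1d2, Dbp and Usp2. Their probe sets were taken by gene symbol from the platform annotation of the array, and the genes themselves were chosen with earlier results of these data known. All 10 were found, with 22 probe sets, among 18193 genes that the arrays name singly. Liver RNA was hybridised to 4 single-colour Affymetrix mouse arrays, 1 for each group and day. Every mouse, controls included, carried the genotype given as Metff/ff:ERCre+/+, in which exon 16 of Met, the hepatocyte growth factor receptor, is removed once tamoxifen switches on the Cre recombinase. The group labelled delta MET + EGFRi, called treated here, received tamoxifen in corn oil on 5 consecutive days, rested for 4 days and then ate canertinib, which blocks the receptor tyrosine kinase EGFR, at an intended 80 mg/kg/day. Its livers were taken at day 7 and day 10 of the canertinib diet. Control littermates received corn oil alone and were sampled 7 and 10 days after the same rest. Each array carried RNA pooled from several livers, in a number the labels do not give. The 2 arrays of a group are therefore its only replicates, they differ in day, and the p-values measure the spread between these pools, days included. The label does not name the promoter that drives Cre. Tamoxifen, Met deletion and canertinib cannot be told apart in this design. The labels give neither the hour of the day at which livers were taken nor the sex, age or strain of the mice. Clock transcripts depend on that hour, so a difference in hour between the pools and an effect of treatment or day cannot be told apart.

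In the molecular clock, ARNTL (also called BMAL1) pairs with CLOCK or its relative NPAS2 and switches on genes through E-boxes. Among those genes are the Per and Cry genes, whose proteins return to the nucleus and repress the activator, and Nr1d1 and Nr1d2, whose REV-ERB proteins repress Arntl and Npas2 through ROR elements. In liver the loop drives the output factor DBP, which acts through D-boxes, and the deubiquitinase USP2, and their transcripts follow a daily rhythm with Arntl and Npas2 at the opposite phase to Dbp. Feeding and glucocorticoids are known to set the liver clock, and Per1 responds to glucocorticoids directly.

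The promoters of the members show where these elements lie, and the stretches that hold a match are printed to show the element through which each of these 5 genes can be linked to the loop. RefSeq windows (GRCm38.p6) from 250 bases before to 50 bases after a transcript start existed for 9 of the 10 members, 11 windows in all, and Per2 had none. The search covered both strands for the E-box CACGTG, the variant E-box CACGTT, the D-box TTATGTAA or TTACGTAA, the ROR element core TAGGTCA or TGGGTCA, and the cyclic AMP response element (CRE) TGACGTCA. Capitals mark each match, and each stretch is 100 bases of the strand of the gene, so that a match on the other strand reads as the reverse complement.
Per1, chr11:69098736-69098835, plus strand: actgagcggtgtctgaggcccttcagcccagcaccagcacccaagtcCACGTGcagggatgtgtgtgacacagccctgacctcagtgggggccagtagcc
Cry1, chr10:85185072-85185171, minus strand: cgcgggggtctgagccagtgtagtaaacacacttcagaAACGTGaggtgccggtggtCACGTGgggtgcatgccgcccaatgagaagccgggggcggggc
Nr1d1, chr11:98775353-98775452, minus strand: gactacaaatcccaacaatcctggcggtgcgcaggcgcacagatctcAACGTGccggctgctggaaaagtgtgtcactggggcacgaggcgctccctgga
Per3, chr4:151044794-151044893, minus strand: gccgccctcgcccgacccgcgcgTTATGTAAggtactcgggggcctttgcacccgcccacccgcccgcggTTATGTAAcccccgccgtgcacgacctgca
Arntl, chr7:113207461-113207560, plus strand: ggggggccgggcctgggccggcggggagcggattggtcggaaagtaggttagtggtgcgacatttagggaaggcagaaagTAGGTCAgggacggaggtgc

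The E-box of Per1 began 166 bases before the transcript start in 1 of its 2 windows, and the other Per1 window held no match. That of Cry1 began 60 bases before the transcript start. A variant E-box began 79 bases before the start of Cry1 and 28 bases before that of Nr1d1, both on the opposite strand. Per3 held its D-box at 205 and again at 158 bases before the start, and the ROR element core of Arntl began at base 31 of the transcript in 1 of its 2 windows. Of all 32851 promoter windows in the table, 7.15% held the E-box, 4.68% the variant E-box, 1.06% a D-box, 6.45% a ROR element core and 1.79% the CRE. In the windows of Npas2, Nr1d2, Dbp and Usp2 these letters were not found, which says nothing of sites outside them.

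**Figure D1:**
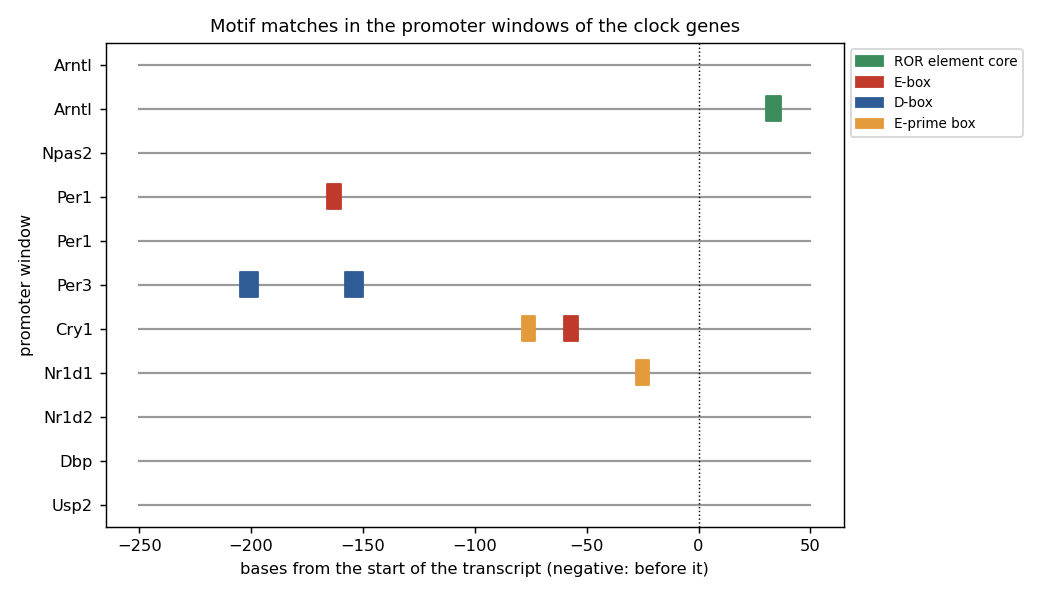
Motif matches in the 11 promoter windows of 9 clock genes, plotted as bases from the transcript start (dotted line), with a colour for each motif. The 2 D-boxes of Per3 and the E-box of Per1 lie upstream of the start, and the ROR element core of Arntl lies downstream of it.

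The arrays are of a common scale, with median signals from 210.5 to 223.9 units and correlations between pairs of arrays from r = 0.923 to 0.948 across probe sets (log2, floored as described below). Met itself gave 976 and 1271 units on the control arrays and 2433 and 2829 units on the treated arrays (log2 difference 1.24 ± 0.23 SE, limma adjusted p = 0.103). Its other probe set gave 412 and 495 units in control and 458 and 626 units in treated livers. The positions of these probes relative to the deleted exon are not used here, so neither value checks the deletion. The hepatocyte markers Alb, Ttr, Apoa1, Cps1, Cyp2e1 and Ass1 gave 0 calls in 6 genes, and Alb, the plasma albumin gene, lay between 71295 and 78532 units on all arrays. Several Kupffer cell and neutrophil markers rose, with values given below.

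Averaged over both days, no tested clock gene passed, and the groups were further apart at day 7 than at day 10 in several of them. At day 7 Usp2, Dbp and Per1 read higher and Npas2 and the brightest Arntl probe set lower in treated than in control livers, and at day 10 these 5 genes lay nearer to the controls. Both day 7 arrays had a part in this: Usp2 and Dbp were highest on the treated one, and Usp2 and Per1 lowest on the control one. Values are MAS5 signal units of the brightest probe set of a gene. Signals under 64.8 units were set to that floor before log2, and 8 of the 10 members passed the filter on dim genes. Npas2 and Cry1 lay under it and entered no test. In limma, 0 of the 8 tested members had an adjusted p under 0.05. Over all 11993 tested genes 0.375% were called higher and 0.283% lower in treated livers. At an unadjusted p under 0.05 there was 1 member, Per1, against 12.1% of all genes. The median log2 difference was 0.22 over the 8 tested members and -0.02 over all tested genes. In bulk liver RNA, fewer cells of a type and less RNA per cell cannot be told apart.

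**Figure D2:**
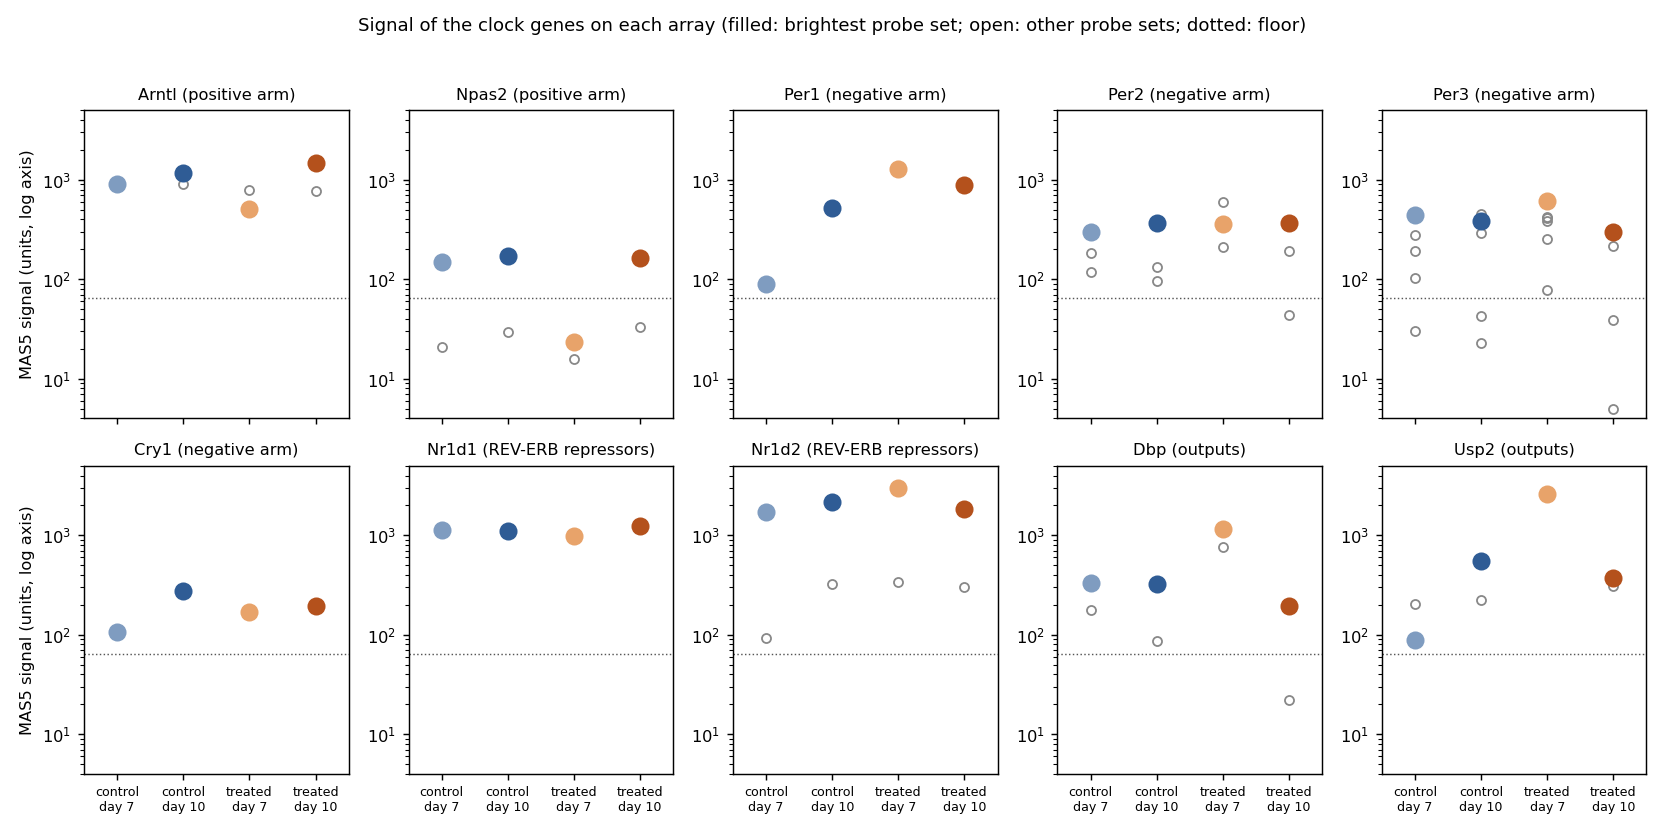
MAS5 signal on a log axis for each of the 10 clock genes on the 4 arrays, 1 array per group and day. Filled points are the brightest probe set, open grey points the other probe sets, and the dotted line the floor of 64.8 units. The brightest Usp2 probe set reads 2630 units on the treated day 7 array and at most 547 units on any other. The brightest Npas2 probe set lies under the floor on the treated day 7 array alone, and its other probe set on all 4 arrays.

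In the positive arm, the brightest Arntl probe set and Npas2 were lowest on the treated day 7 array. Arntl (chr7:113178471-113314126), the central activator of the loop, gave 904 units in control livers at day 7, 1167 in controls at day 10, 508 in treated livers at day 7 and 1489 in treated livers at day 10 (probe set 1425099_a_at). The treated arrays thus held both its lowest and its highest value, and the groups overlapped. At day 7 Arntl was 1.78-fold lower in treated than in control livers and at day 10 1.28-fold higher. The log2 difference over both days was -0.24 ± 0.49 (SE, adjusted p = 0.880).

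A further Arntl probe set, 1457740_at, was nearly level, at 868 and 915 units in control livers and 787 and 768 units in treated livers at days 7 and 10. Both treated values lay under both control values there, by 1.10-fold at day 7 and 1.19-fold at day 10, so that the 2 probe sets do not share the dip at day 7. Npas2 (chr1:39193702-39363240), whose protein can stand in for CLOCK, gave 150 and 172 units in control livers, 23.3 units in treated livers at day 7 and 164 units in treated livers at day 10. The day 7 treated value lies under the floor. At this floor the gene was at least 2.31-fold lower than its day 7 control, while the day 10 values differed 1.05-fold. The day 7 log2 difference depended on the floor. It was -1.21 as reported, -2.68 with the floor at the 10th percentile and -0.07 with the floor at the 40th. A second Npas2 probe set was under the floor on all 4 arrays and gives no comparison.

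On the brightest probe sets, Per1 alone of the 8 tested members had both treated arrays above both control arrays. Per1 has 1 probe set. Usp2 probe set 1417168_a_at and Per2 probe set 1417602_at, not the brightest of their genes, also had this order. Per1 (chr11:69095108-69109965), a repressor of the negative arm that is also induced quickly by outside cues, gave 90.6 units in controls at day 7, 519 in controls at day 10, 1283 in treated livers at day 7 and 888 in treated livers at day 10. That is 305 ± 303 units in control and 1085 ± 280 units in treated livers (mean ± SD, n = 2 arrays). Among all tested genes 20.3% had both treated values above both control values and 24.1% had both below. The control day 7 array was the one that stood lowest, 5.73-fold under the control day 10 array. The difference was therefore 14.2-fold at day 7 and 1.71-fold at day 10.

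Over both days the log2 difference of Per1 was 2.30 ± 0.76 (SE, unadjusted p = 0.0213, adjusted p = 0.314). It was 1.04 without the control day 7 array and 3.56 without the control day 10 array, with adjusted p = 0.570 and 0.0692. The size of the Per1 difference thus changed with which control array was used.

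Per2 (chr1:91415977-91459351), the second PER repressor, read differently on its 3 probe sets. The brightest, 1457350_at, was nearly level, with 296 and 366 units in controls and 356 and 368 units in treated livers (log2 difference 0.14 ± 0.29 SE, adjusted p = 0.885). Probe set 1417602_at gave 183 and 134 units in controls, 596 units in treated livers at day 7 and 194 units at day 10. Its day 7 treated value was at least 3.07-fold above each of the other arrays. Probe set 1417603_at showed the same order at day 7, with 214 units against 117 in the control, and was under the floor, at 44.1 units, in treated livers at day 10.

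Per3 (chr4:150997018-151044707), the PER family member held least essential to the loop, has 6 probe sets. The brightest, 1421087_at, gave 446 and 386 units in controls, 615 in treated livers at day 7 and 301 at day 10. The treated livers held the highest and the lowest value, 2.04-fold apart (log2 difference between groups 0.05 ± 0.38 SE, adjusted p = 0.971). Probe set 1458176_at was under the floor on every array except that of treated livers at day 7, where it gave 428 units, at least 6.60-fold above the others. The other 4 probe sets of Per3 differed between groups by at most 1.39-fold at day 7 and 1.44-fold at day 10. The brightest probe set and 1442243_at were also highest on the treated day 7 array, by 1.38-fold and 1.03-fold over the next array. The size of the day 7 difference of 1458176_at was thus not shared by the other Per3 probe sets.

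Cry1 (chr10:85131700-85185054), the cryptochrome that represses the activator late in the cycle, was dim, at 106 and 273 units in controls and 168 and 197 units in treated livers. Its control arrays were 2.58-fold apart and enclosed both treated values. No test was made at this signal, and treated livers read 1.59-fold higher at day 7 and 1.39-fold lower at day 10.

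Neither REV-ERB repressor passed the test. Nr1d1 (chr11:98767932-98775377) gave 1134 and 1103 units in controls and 997 and 1245 units in treated livers, which overlapped. With a log2 difference of -0.0052 ± 0.22 (SE, adjusted p = 0.996) its sign turned once array medians were made equal. Nr1d2 (chr14:18204056-18239106) gave 1701 and 2148 units in controls, 2990 in treated livers at day 7 and 1860 at day 10. Its day 7 treated value was the highest of the 4, 1.76-fold above the day 7 control (log2 difference over both days 0.30 ± 0.29 SE, adjusted p = 0.719). A dimmer Nr1d2 probe set, 1416959_at, gave 92.9 units in the day 7 control and 303 to 343 units on the other 3 arrays.

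Both output genes had their highest signal on the treated day 7 array. Dbp (chr7:45705100-45710203), a transcription factor that acts on D-boxes of metabolic genes, gave 332 and 325 units in controls, 1173 in treated livers at day 7 and 194 at day 10. It was 3.53-fold higher at day 7 and 1.67-fold lower at day 10, and the groups overlapped. The control arrays agreed closely, at 329 ± 5.5 units (mean ± SD, n = 2), and the treated arrays gave 683 ± 692 units (n = 2). Probe set 1438211_s_at had the same order, with 177 and 85.8 units in controls, 771 in treated livers at day 7 and 22.3, under the floor, at day 10. The log2 difference over both days was 0.54 ± 0.77 (SE, adjusted p = 0.821). Without the treated day 10 array it was 1.84 and passed (adjusted p = 0.0144), with the spread taken from the control arrays alone, and without the treated day 7 array it was -0.76 (adjusted p = 0.502).

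Usp2 (chr9:44067021-44095627), a ubiquitin-specific protease whose transcript is strongly rhythmic in liver, gave 88.2 units in controls at day 7, 547 in controls at day 10, 2630 in treated livers at day 7 and 375 at day 10 (probe set 1417169_at). Probe set 1417168_a_at gave 205 and 226 units in controls, 2664 in treated livers at day 7 and 311 at day 10. Both probe sets put the treated day 7 array above all others, by at least 4.81-fold and 8.57-fold. The day 7 difference was 29.8-fold and 13.0-fold for the 2 probe sets. At day 10 the first was 1.46-fold lower and the second 1.37-fold higher in treated livers. Over both days the log2 difference was 2.18 ± 1.10 (SE, adjusted p = 0.498) for the first and 2.08 (adjusted p = 0.444) for the second. Without the treated day 7 array that of the first was 0.77, and without the treated day 10 array 3.58 (adjusted p = 0.0521). Left without the control day 7 array it was 0.86 and without the control day 10 array 3.49.

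The next comparison asked at which day the groups were apart. It rests on 1 array per side, so that it has no replicate check and is described by a 2-fold rule. At day 7, 3 of the 8 tested members were at least 2-fold higher in treated livers (Per1, Dbp and Usp2) and 0 at least 2-fold lower, where 4.6% and 5.16% of all tested genes were. Npas2, outside the test, was the member more than 2-fold lower, at the floor of 64.8 units. At day 10, 0 of the 8 were past 2-fold in either direction, against 5.84% of all tested genes higher and 4.91% lower. The median log2 difference of the 8 was 0.64 at day 7 and -0.10 at day 10, beside -0.06 and 0.01 over all tested genes. The counts and medians here rest on the brightest probe sets. Dimmer probe sets of Per2 (1417602_at), Nr1d2 (1416959_at) and Per3 (1458176_at) were 3.25-fold, 3.69-fold and at least 6.60-fold higher at day 7. The remaining dimmer ones of Arntl, Per2 and Per3 were within 2-fold.

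**Figure D3:**
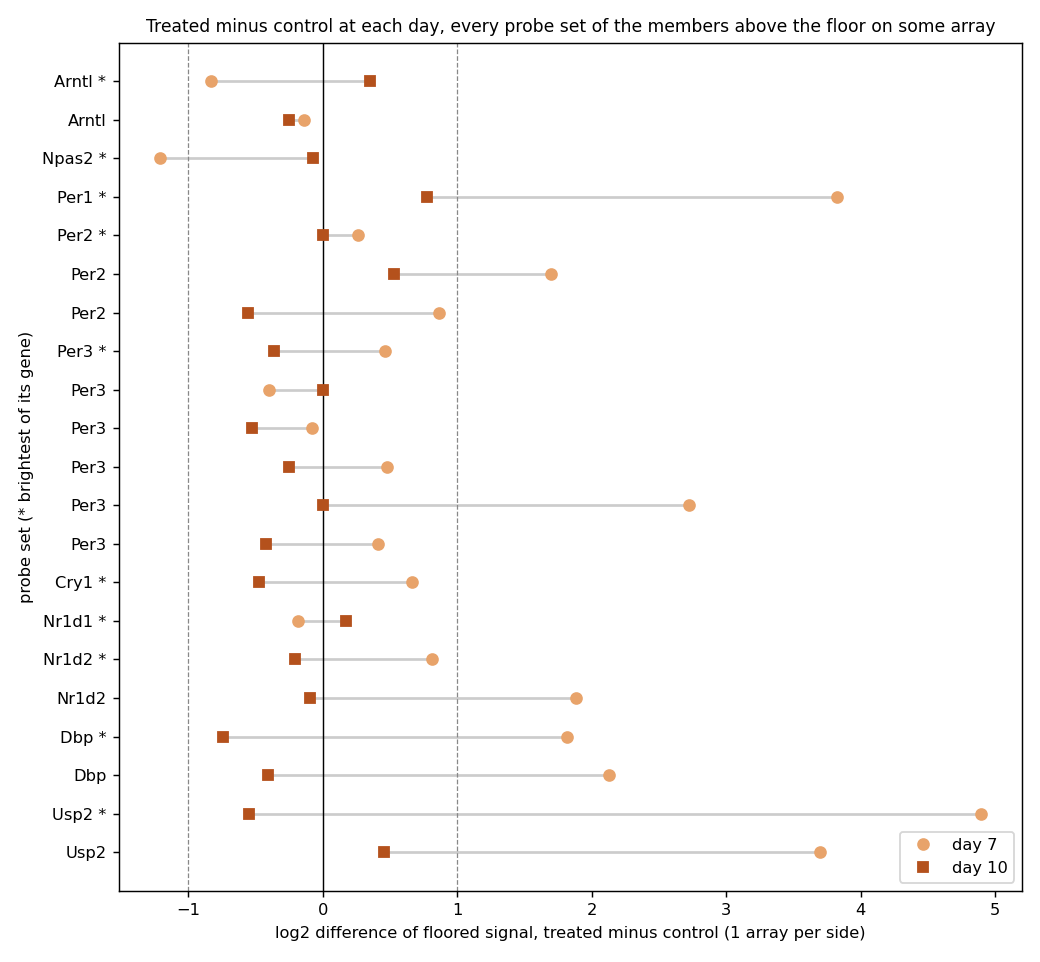
Log2 difference of the floored signal, treated minus control, at day 7 (circles) and day 10 (squares) for the 21 probe sets of the clock genes that exceed the floor on some array, with 1 array per side. Dashed lines mark 2-fold. At day 7 the brightest probe sets of Usp2, Per1 and Dbp lie past 2-fold to the right. So do dimmer probe sets of Usp2, Dbp, Per2, Per3 and Nr1d2, and every day 10 point lies within 2-fold.

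Between the days, 4 tested members were past 2-fold in treated livers and 2 in controls. From day 7 to day 10 of treatment, Per3, Dbp and Usp2 were at least 2-fold lower, at 2.04-fold, 6.04-fold and 7.01-fold, and Arntl was 2.93-fold higher. Over all tested genes 3.78% were that much lower and 3.84% that much higher. In control livers Per1 and Usp2 were at least 2-fold higher at day 10 than at day 7, by 5.73-fold and 6.20-fold, and 0 of the 8 were lower, where 2.05% and 3.09% of all tested genes were. These values rest on the brightest probe set. From day 7 to day 10 of treatment the other Arntl probe set was 1.03-fold lower. Per3 probe sets 1441445_at, 1442243_at and 1460662_at were 1.30-fold, 1.23-fold and 1.18-fold lower, and the dim 1458176_at at least 6.60-fold lower. The other Usp2 probe set was 8.57-fold lower, but in controls only 1.10-fold higher at day 10. The other Dbp probe set was at least 11.9-fold lower. Whether the change between days differed between the 2 groups was not tested, since this leaves no residual degrees of freedom.

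Asking instead which single array stood at least 2-fold from each of the other 3, a description added after the values were seen, the treated day 7 array was above for Dbp and Usp2 (0.517% of all tested genes) and below for 0 of the 8 (1.17%). The control day 7 array was below for Per1 and Usp2 (0.959% of all tested genes) and above for 0 (0.275%). No tested member set the control day 10 array apart (0.167% of all tested genes above, 1.23% below) or the treated day 10 array (0.6% above, 1.58% below). Usp2 thus ran in order from the control day 7 array through both day 10 arrays to the treated day 7 array. These counts rest on the brightest probe set, and the other Usp2 probe set placed the control day 7 array within 1.10-fold of the control day 10 array.

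The remaining genes of the loop were taken from lists chosen by their known roles, and 0 of the 5 other core loop genes that were bright enough passed in either direction (median log2 difference 0.40). Clock, the partner of ARNTL, gave 326 and 355 units in controls and 418 and 480 in treated livers (log2 difference 0.40, adjusted p = 0.601). Cry2, the second cryptochrome, gave 296 and 72.9 units in controls and 676 and 186 in treated livers, so that both groups read higher at day 7 (log2 difference 1.27, adjusted p = 0.605). Rora, an activator at ROR elements, lay between 2546 and 2939 units on all arrays (adjusted p = 0.921). Bhlhe40, an E-box repressor also called DEC1, was higher at both days, with 916 and 673 units in controls and 2123 and 2288 units in treated livers, without passing (log2 difference 1.49, adjusted p = 0.064). Arntl2, a relative of Arntl, gave 530 and 520 units in controls and 251 and 471 in treated livers (adjusted p = 0.549).

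Below the filter, Ciart, a repressor of the CLOCK and ARNTL pair, was at 72.8 and 76.8 units in controls, 985 units in treated livers at day 7 and 96.7 units at day 10. Timeless gave 216 and 222 units in controls and 26.3, under the floor, and 85.1 units in treated livers. Rorb was at 193 and 232 units in controls and 153 and 50.6 in treated livers, and Bhlhe41 at 263 and 115 against 244 and 163 units. These 4 entered no test.

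The PAR bZIP factors TEF and HLF, relatives of DBP, and NFIL3, which represses at the same D-boxes, gave 0 calls in 3 genes (median log2 difference 0.52). Tef gave 1664 and 2418 units in controls, 5900 in treated livers at day 7 and 1776 at day 10 (adjusted p = 0.663). Hlf gave 881 and 1189 units in controls, 1686 in treated livers at day 7 and 780 at day 10 (adjusted p = 0.898). Like Dbp, both had their highest signal on the treated day 7 array. Nfil3 had the highest of its values on the treated day 10 array instead, with 2014 units against 551 in treated livers at day 7 and 612 and 882 in controls (adjusted p = 0.765).

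Enzymes that phosphorylate, deacetylate or mark clock proteins for degradation stayed within 2-fold. Of 9 tested genes (Csnk1a1, Csnk1d, Csnk1e, Csnk2a1, Gsk3b, Btrc, Fbxw11, Fbxl21 and Sirt1) 0 passed and 0 were past 2-fold at either day, with a median log2 difference of 0.08. Over all tested genes 4.6% were at least 2-fold higher and 5.16% lower at day 7, and 5.84% and 4.91% at day 10. Btrc, a subunit that targets PER proteins for degradation, had the largest difference of the 9, at 700 and 728 units in controls and 441 and 539 in treated livers (log2 difference -0.55, adjusted p = 0.419). Sirt1, a deacetylase, was next with 312 and 385 against 510 and 500 units (log2 difference 0.54, adjusted p = 0.480).

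Among 12 tested rhythmic liver outputs 1 fell and 0 rose, with a median log2 difference of 0.90 at day 7 and 0.04 at day 10. That gene was Elovl3, a fatty acid elongase, at 16697 and 16908 units in controls and 307 and 350 in treated livers (log2 difference -5.68, adjusted p = 0.000397). At day 7, 6 of the 12 were at least 2-fold higher and 2 at least 2-fold lower in treated livers, and at day 10 3 were higher and 4 lower. Over all tested genes 4.6% were that much higher and 5.16% lower at day 7, and 5.84% and 4.91% at day 10. Rgs16, a regulator of G protein signalling, gave 26.3, under the floor, and 117 units in controls, 1940 in treated livers at day 7 and 155 at day 10 (log2 difference at the floor 2.66, adjusted p = 0.422). Nr1i3, the receptor CAR whose gene is a known PAR bZIP target, gave 1615 and 666 units in controls and 6930 and 2328 in treated livers (log2 difference 1.95, adjusted p = 0.284). Cyp7a1, the rate-limiting enzyme of bile acid synthesis, differed in opposite directions at the 2 days, with 1587 and 3373 units in controls, 7478 in treated livers at day 7 and 546 at day 10 (adjusted p = 0.964). Lpin1, a phosphatidate phosphatase, gave 1971 and 1719 units in controls and 9687 and 2339 in treated livers (adjusted p = 0.443).

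Of these 12 outputs, 4 stood at least 2-fold higher on the treated day 7 array than on each of the other arrays (0.517% of all tested genes). At least 2-fold lower stood 1 (1.17%). The lower was Tubb2a, a tubulin gene, with 791 units against 4092 to 5117 on the others (adjusted p = 0.468). Alas1, the first enzyme of haem synthesis, was higher at both days without passing, with 6273 and 2633 units in controls and 10879 and 6677 in treated livers (adjusted p = 0.420).

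**Figure D4:**
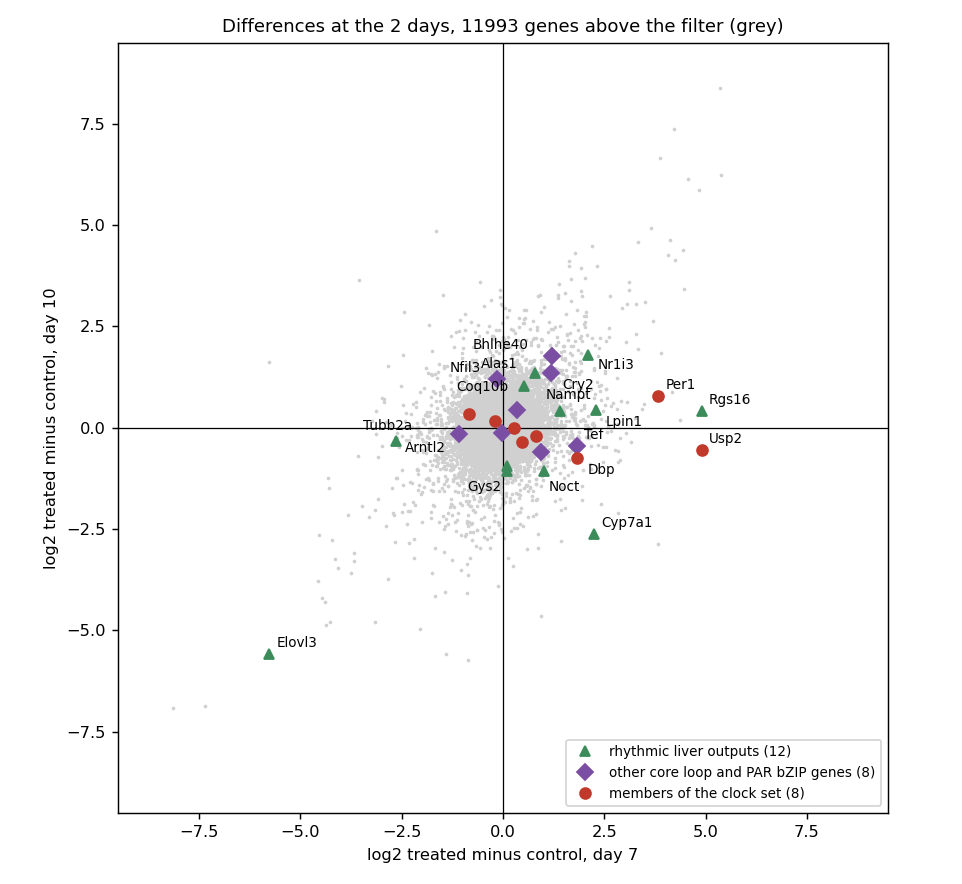
Log2 difference, treated minus control, at day 7 (x axis) and day 10 (y axis) for 11993 tested genes (grey), 8 tested clock genes (circles), 8 other core loop and PAR bZIP genes (diamonds) and 12 rhythmic outputs (triangles), with 1 array per side. Usp2, Rgs16 and Per1 lie far to the right and within 2-fold on the day 10 axis, and Elovl3 is low at both days.

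Genes that respond to cues known to reset the liver clock were also read. Of 8 glucocorticoid-responsive genes 2 rose and 0 fell (median log2 difference 0.25). Fkbp5, a chaperone of steroid receptors, rose from 788 and 1301 units to 7943 and 5025 (log2 difference 2.64, adjusted p = 0.0307), and Zbtb16, a transcription factor, from 638 and 795 to 3008 and 2151 units (log2 difference 1.84, adjusted p = 0.0455). Tsc22d3, also glucocorticoid-induced, was highest on the treated day 7 array without keeping its direction, at 1358 and 2007 units in controls and 2884 and 1495 in treated livers (adjusted p = 0.764). Klf9 had 5703 and 6032 units in controls and 9862 and 6546 in treated livers (adjusted p = 0.542). The remaining genes of this list did not follow them. Nr3c1, Sgk1, Dusp1 and Errfi1 gave log2 differences of -0.13, -0.13, -0.20 and 0.17, and Dusp1 was lower at both days. Fkbp5 and Zbtb16 were higher at both days. The part of glucocorticoids in the clock genes was not tested.

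Of 9 feeding- and fasting-responsive genes 1 rose and 0 fell (median log2 difference 0.33). It was Igfbp1, an insulin-repressed binding protein, at 2706 and 2906 units in controls and 26098 and 24283 in treated livers (log2 difference 3.17, adjusted p = 0.00228). The gluconeogenic G6pc gave 9745 and 17304 units in controls and 6473 and 4933 in treated livers (adjusted p = 0.231), and Pck1 5691 and 15363 against 19866 and 16376 units (adjusted p = 0.480). Srebf1, a regulator of lipid synthesis, gave 7116 and 4416 units in controls and 2819 and 4045 in treated livers (adjusted p = 0.423). Food intake is not in the labels, and its part in the clock genes was not tested.

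None of the 6 tested temperature- and HSF1-responsive genes passed in limma (median log2 difference -0.44). The heat shock gene Hspa1b was lower at both days, with 1913 and 2351 units in controls and 355 and 642 in treated livers (log2 difference -2.15, adjusted p = 0.0547). Hsp90aa1 and Hsph1, also driven by HSF1, gave log2 differences of -1.01 (adjusted p = 0.303) and -0.88 (adjusted p = 0.401). The heat shock genes Hspa8 and Dnajb1 were not lower over both days, with log2 differences of 0.41 and 0.0011. At day 7, 3 of the 6 were at least 2-fold lower and 1 at least 2-fold higher, the cold-inducible Cirbp, at 1060 units against 514 in the control. Over all tested genes 5.16% were that much lower and 4.6% that much higher at day 7.

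Markers of other liver cells were measured because their share of the RNA could differ. Of 8 Kupffer cell and macrophage markers 3 rose (Cd163, Vsig4 and C1qc, log2 differences 2.95, 2.05 and 2.27, adjusted p = 0.0174, 0.0193 and 0.0302) and 0 fell, and their summed signal was 15153 and 8510 units in controls and 36072 and 38525 in treated livers. Of 4 tested neutrophil markers 2 rose (S100a8 and S100a9, log2 differences 3.35 and 3.17, adjusted p = 0.00306 and 0.0307) and 0 fell, while Ngp gave 547 and 757 units in controls and 1465 and 812 in treated livers (adjusted p = 0.445). The summed signal over the 5 on the array was 1599 and 1822 units in controls and 7024 and 6679 in treated livers, and Camp was under the floor on all arrays. These sums were higher on both treated arrays, and the part of these cells in the clock values was not tested. The 6 sinusoidal endothelial markers summed to 6250 to 7091 units in controls and 6498 to 9312 in treated livers, and the 4 stellate cell markers to 8151 to 9243 and 13537 to 14758 units, each with 0 calls. Stab2, of sinusoidal endothelium, gave 1374 and 1230 units in controls and 1602 and 1770 in treated livers (adjusted p = 0.534). The stellate sum was carried by Dcn, at 5198 and 5879 against 11905 and 10839 units (adjusted p = 0.121), while the median log2 difference of the 4 was -0.19 and Des gave 433 and 333 against 372 and 297 units (adjusted p = 0.839). The 1 tested cholangiocyte marker of 3 on the array and the 2 tested T cell markers of 3 gave 0 calls, with summed signals of 694 to 750 and 296 to 888 units, and of 1849 to 2001 and 2096 to 2735 units. Cd3e, of T cells, gave 156 and 231 units in controls and 292 and 323 in treated livers (adjusted p = 0.544).

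Likeness of pattern was measured as the root mean square difference between log2 signals over the 4 arrays, each gene centred on its own mean. The genes nearest to Dbp were Slc37a4, the glucose-6-phosphate transporter (0.22), the glutathione transferase Gstt3 (0.23), the urea cycle enzyme Asl (0.26), the kinase gene Sbk1 (0.29) and Gpsm2 (0.30). Slc37a4 gave 4881 and 4317 units in controls, 12770 in treated livers at day 7 and 3205 at day 10. The genes nearest to Arntl were Pcyox1l (0.04), Usp13 (0.05), Cdca2 (0.08), Pldi (0.10) and Ifitm5 (0.10), each at signals between 135 and 528 units. These likenesses rest on 4 arrays and are a description only.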

How the data were processed

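Per the labels' protocols, total RNA of pooled livers was labelled with biotin and hybridised to single-colour arrays. Per the submitters' processing notes, the authors used MAS5 (version not given in the sources used here). Each deposited value is a probe set's intensity on a linear scale, and the mean after trimming 2% at each end was 500.0 units on every array. Detection calls were not used here. Having so few arrays limits precision.

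Of 45101 probe sets 64 are array controls, and 34945 carry 1 gene symbol, 932 several and 9160 none. Only singly named probe sets entered gene counts. Of these, 34741 matched the RefSeq table by Entrez ID, which updated 0 symbols. Before log2, values below the 25th percentile (64.8) were raised to it. The probe set with the highest mean stood for its gene. Kept were 11993 genes whose mean exceeded 7.67 (a signal of 204), the median of all probe sets. Treated and control arrays were compared by limma (3.58.1, under R 4.3.3; eBayes trended on intensity, 2-sided, Benjamini-Hochberg over all kept genes, adjusted p under 0.05, no day term, 2 residual degrees of freedom). A second fit ran over probe sets. The limma step was tested on simulated data. Where a signal lies at the floor, a fold is a lower bound. Figures used Python 3.11.15 and matplotlib 3.10.9.

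The members and lists were chosen with earlier results of these data known. Genes named beyond the members are those of the core loop, PAR bZIP and enzyme lists that the array measured (given singly or by name; 1 item is not reported here), genes that pass, up to 3 of each other list whose difference was largest and had 1 sign on both days, and the 5 nearest to Arntl and to Dbp, passing over predicted genes. Cyp7a1, Lpin1, Tubb2a, Alas1, Tsc22d3, Nr3c1, Sgk1, Dusp1, Errfi1, Srebf1, Cirbp, Hspa8 and Dnajb1, named from the lists, were added after their values were seen. So was the count of single arrays standing apart. Tried as alternatives were equal array medians, quantile normalization, floors at the 40th and the 10th percentile, log2(signal + 50), no filter or one at the 75th percentile, the mean of probe sets, no trend, day as a block, each array left out, other probe sets, and size rules of 1.5-fold and 3-fold.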

Additional observations from a re-analysis of the deposited data

Results flagged for a closer look

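In 7 of the 10 clock genes the treated livers lay on opposite sides of the controls at the 2 days, which is untested because each day has 1 array per side. Of the 8 tested members 6 did so, and of the 11993 tested genes 42.1%. The log2 difference at day 10 minus that at day 7 was -5.44 for Usp2, -2.56 for Dbp, -1.14 for Cry1, -1.02 for Nr1d2 and -0.82 for Per3, and 1.18 for Arntl and 0.36 for Nr1d1. For Usp2 the other probe set, 1417168_a_at, kept its direction at both days (log2 differences 3.70 and 0.46), and so did the other Arntl probe set (-0.14 and -0.25).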

How the results depend on the processing

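Precision is limited by 2 pooled arrays per group. Of 120 alternative values of the members, 107 kept their direction and their side of the threshold, 12 changed sign and 1 newly passed. The call count of members was 0 in every setting except without the treated day 10 array, where Dbp passed (range 0 to 1 with each array left out). Genes called over the whole array numbered 79 as reported, 0 without a filter on dim genes (1918 at an unadjusted p under 0.05 in limma), 42 with the mean of probe sets, 42 without the trend and 47 with day as a replicate block, and 24 to 466 with each array left out. The deviations of the days from their group means correlated at r = -0.07 between groups over the 11993 tested genes. This value covers all genes together, so it cannot show whether a small set of genes shares a day effect. The block changed no call among the members, which had 0 calls without it. At day 7 the members past the size rule numbered 3 at 2-fold, 5 at 1.5-fold and 3 at 3-fold, and at day 10 0, 2 and 0. The share of all tested genes was taken at 2-fold only. The counts at 1.5-fold and 3-fold therefore have no share to be set against and show only how the number moves with the rule. Sign changes came with an array left out in Arntl (-1.02 to 0.54), Per2 (-0.0174 to 0.29), Per3 (-0.46 to 0.57), Nr1d1 (-0.17 to 0.15), Nr1d2 (-0.0395 to 0.65) and Dbp (-0.76 to 1.84). The treated day 7 array was the one whose absence gave 0.54 in Arntl, -0.46 in Per3, -0.0395 in Nr1d2 and -0.76 in Dbp. Nr1d1 was 0.0121 with equal medians, and Per3 was -0.30 on probe set 1441445_at, -0.0052 on 1460662_at and -0.20 on 1421086_at. At day 10 the sign of Per2 changed to -0.04 with quantile normalization and -0.05 with equal medians. The cause of these changes was not tested.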
